A study of Mus musculus with 10 samples.

Results

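The control transcriptome of the cortical midline was described from 2 RNA-seq libraries of the 10 libraries in the series, and the level of each gene was set beside the Rcor2 peaks named for it. The midline is the medial edge of the developing cortex, where callosal axons will cross between the hemispheres. The 2 RNA libraries came from C57/Bl6 embryos on embryonic day 14.5 with the genotype Rcor2f/f, whose Rcor2 alleles are both floxed and for which the labels name no Cre. The labels do not say whether a library is 1 embryo or a pool. The peaks came from midline of wild-type C57/Bl6 embryos of the same age: 2 Rcor2 chromatin immunoprecipitation (ChIP) libraries were compared with 2 IgG control libraries, and 2 input libraries of unprecipitated chromatin were measured at the same peaks. RNA and peaks therefore came from different genotypes. The RNA data cover 16338 genes and the ChIP data 6995 peaks, and the knockout libraries of the series were not used.

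Rcor2 belongs to the CoREST family of scaffold proteins. CoREST proteins bridge the histone demethylase Kdm1a (LSD1) and the histone deacetylases Hdac1 and Hdac2, and the transcription factor Rest is the best known protein that brings the complex to neuronal genes in cells that are not neurons. At this age the cortex holds dividing radial glia, their intermediate progenitor daughters and young projection neurons, with few glia yet formed.

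Levels are normalized counts, that is, the reads of a gene divided by a factor for its library. They are not divided by transcript length, so a long transcript gives more reads than a short transcript at the same number of molecules, and every ranking below is a ranking of reads per gene. The libraries held 30270598 reads in control 1 and 27674987 in control 2. The median gene had a mean of 607.6 normalized counts, 2058 genes had a mean under 10, and 36 were at 0 in both libraries. The 16338 genes do not include every gene: of 16 listed markers of other brain regions, only 6 were measured. Likewise, 324 of the 3491 gene names in the peak data have no level here and fall outside every share below. The bottom quintile is therefore not a full set of unread genes. Over the 14280 genes whose mean reached 10, the median absolute log2 difference between the 2 controls was 0.075, and counting error alone would give 0.048. In the top quintile of levels the corresponding values were 0.044 and 0.021. At least a 2-fold difference was present in 133 of the 14280 genes (0.931%), 92 of them in the bottom quintile. With 1 group of 2 libraries no test between samples was possible, and values are given as descriptions.

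The largest differences between the controls were in sex-linked genes. Uty had 2078 normalized counts in control 1 and 0 in control 2, where a count of 0 allows up to 3 reads. The other Y-linked genes had the same pattern: Kdm5d had 2520 and 1.08 normalized counts, Eif2s3y 1246 and 0, and Ddx3y 2936 and 4.32. Xist, the RNA that coats the inactive X chromosome, had 23.4 normalized counts in control 1 and 20334 in control 2. Control 1 thus had a male pattern and control 2 a female pattern, so the spread between the controls includes sex. The X-linked histone demethylase gene Kdm5c had 7140 and 9934 normalized counts, and Kdm6a 2211 and 3439. Outside the sex-linked genes, the histone gene Hist1h2ba had 5.85 and 477.8 normalized counts. The peptidyl-prolyl isomerase gene Ppia had 40.0 and 1702 normalized counts, and Gapdh, a glycolytic enzyme used as a reference in many tissues, had 42.9 and 43.2. Ppia and Gapdh have many near-identical pseudogenes and many histone genes have near-identical copies, so counts of such genes are uncertain. The causes of the gaps between the controls at Hist1h2ba and Ppia were not tested.

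The reads were spread over many genes. The 10 genes with the most reads took 4.49% of normalized counts in control 1 and 4.41% in control 2, the top 100 took 14.5% and 14.6%, and the top 1000 took 44.6% and 44.9%. Protein-coding genes took 94.5% and 94.6%. The first rank went to Rn45s, the precursor of ribosomal RNA, with 239359 normalized counts in control 1 and 226310 in control 2. Rmrp, the RNA of a nuclear ribonuclease, followed with 157070 and 154850 normalized counts, and Rpph1, the RNA of ribonuclease P, had 103001 and 116312. These 3 RNAs are known to lack long poly(A) tails. The long noncoding RNA Malat1 had 120306 and 106993 normalized counts.

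The other genes of the top 10 were protein-coding. Actb, which encodes a cytoplasmic actin, had 152512 and 151561 normalized counts, and the beta-tubulin gene Tubb5 had 122950 and 120816. Map1b, a microtubule-associated protein of growing axons, had 145494 and 152336 normalized counts. The transcription factor gene Nfib, needed for midline glia and callosal development, had 93910 and 102594. Sox11, a factor of newly formed neurons, had 99394 and 91621 normalized counts, and the translation elongation factor gene Eef1a1 had 90197 and 95638. For each of these 6 genes the controls differed by less than 10% of the higher value.

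Regional transcription factor genes were those of the dorsal telencephalon. All 14 measured genes of that list had means above 500 normalized counts, with a median of 2231 against 607.6 for all genes. Tcf4, a bHLH factor that is also read in most neurons, led them with 58902 and 62339 normalized counts in controls 1 and 2. Emx1, a factor of cortical progenitors, had 3166 and 3122, and Emx2 had 2055 and 1902. Lhx2, the selector gene of cortex against hem, had 13496 and 13798 normalized counts. The zinc finger gene Zic1 of the dorsal midline had 3964 and 4108, and Sp8 was the lowest of the list with 499.3 and 509.2. Only 6 of 16 genes that mark other brain regions were measured, and 4 of them had means under 10. Tcf7l2, a thalamic marker that is also an effector of Wnt signalling, led that list with 246.7 and 238.9 normalized counts, and the hypothalamic gene Rax had 1.95 and 1.08. The 2 measured Hox genes had means of 3.57 and 0.54 normalized counts.

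Neuronal and progenitor markers stood in the upper part of the ranking. The 20 pan-neuronal genes had a median of 10133 normalized counts and 14 were in the top quintile. Dpysl3, a cytoskeletal protein of growth cones, followed Map1b with 64722 and 63983 normalized counts. Tubb3, a neuronal beta-tubulin, had 42795 and 41287 normalized counts, and Dcx, a microtubule protein of migrating neurons, had 37567 and 40034. At the other end of that list, the neurofilament genes Nefm and Nefl, which mark mature axons, had means of 247.2 and 160.6. The 24 radial glia genes had a median of 4500 normalized counts, the lowest was Hopx with a mean of 957.8, and 18 were in the top quintile. Vim, an intermediate filament of radial glia, had 38112 and 37538 normalized counts. Nes had 25392 and 24187, and the proliferation marker Mki67 had 21081 and 24104. Among 16 intermediate progenitor genes (median 3152 normalized counts), Eomes, the defining factor of these cells, had 12998 and 13026.

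Markers of deep-layer and upper-layer projection neurons were both present. The 14 deep-layer genes had a median of 1668 normalized counts, led by Bcl11b with 11892 and 11995 and Sox5 with 7286 and 7618. The subcerebral selector Fezf2 had 4432 and 4214 normalized counts and Tbr1 had 5770 and 5666. The 14 upper-layer genes had a median of 3712, but several of their leading members (Lhx2, Plxna4, Cux1) are also read in progenitors or other neurons. Rorb, a nuclear receptor of upper-layer neurons, had 632 and 595 normalized counts. Reln, the secreted glycoprotein of Cajal-Retzius cells, had 47305 and 46009 normalized counts, while the other 9 genes of that list had means from 155.4 to 3218. Genes of ventrally born interneurons were low: the 18 genes had a median of 255.5 normalized counts, and none was in the top quintile. Erbb4 led them with 1754 and 2069, and the ventral progenitor gene Nkx2-1 had 0 and 9.73.

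The list of cortical hem and choroid plexus genes was low as a whole, with a median of 250.05 normalized counts over 20 genes, 6 of them in the bottom quintile and 1 in the top. Its leading members were hem genes, and those of the choroid plexus were near the floor. Dkk3, a secreted protein related to Wnt inhibitors, had 2764 and 2742 normalized counts. Rspo3, an enhancer of Wnt signalling, had 2431 and 2357 normalized counts, and the hem ligands Wnt8b and Wnt3a had 899.1 and 823.8, and 368.6 and 282.2. The choroid plexus genes Ttr, Kl and Kcne2 had means of 16.8, 3.19 and 0. In a bulk library, fewer cells of a type and less RNA per cell cannot be told apart. Genes that mark vessels, blood and immune cells were read in both libraries at low to moderate levels. The summed normalized counts were 7313 and 7540 for 11 endothelial genes, 5460 and 5461 for 9 mural genes, and 1968 and 1789 for 11 microglial genes. For 6 erythroid genes the sums were 1876 and 2683, higher in control 2, and for 11 meningeal genes 1584 and 1376, higher in control 1. The glucose transporter gene Slc2a1 led the endothelial list with 1866 and 2004 normalized counts, and the embryonic globin gene Hbb-y led the erythroid list with 652.4 and 1044. Whether these cells take part in any level below was not tested. None of the 48 genes of these 5 lists was in the top quintile. Glial lineage genes were low as well: Olig2 had 94.6 and 115.7 normalized counts, Gfap 73.1 and 74.6, and the 11 genes had a median of 99.7.

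**Figure D1:**
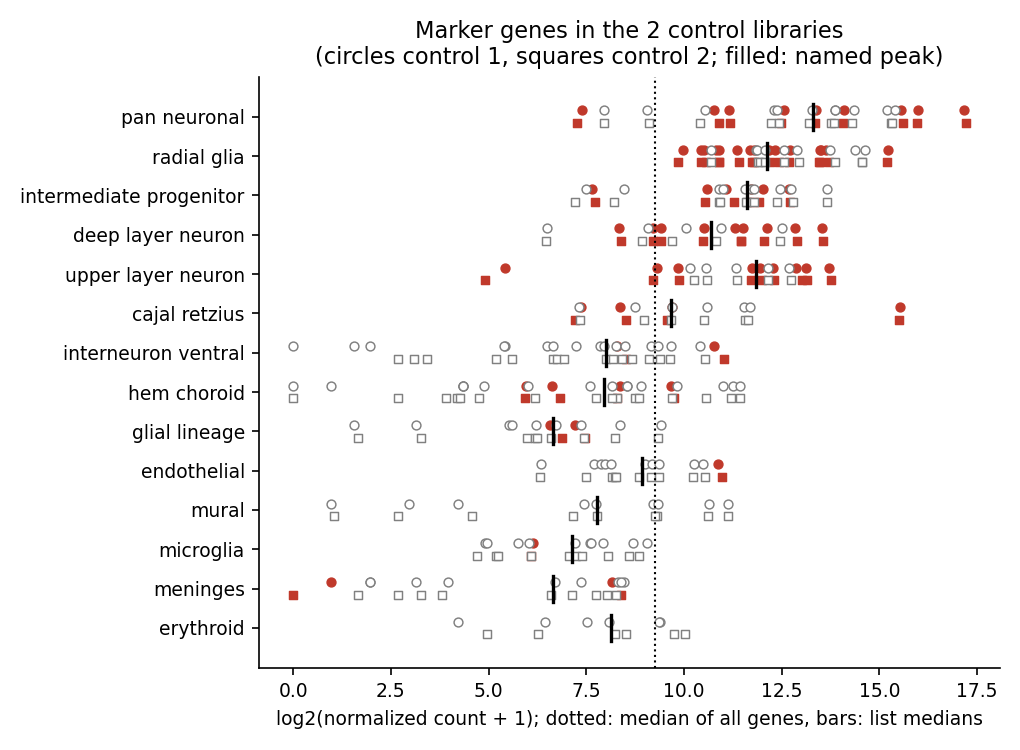
Levels of marker genes, as log2(normalized count + 1), in control 1 (circles) and control 2 (squares), with list medians as black bars and the median of all genes as a dotted line; filled symbols are genes with a named Rcor2 peak. Pan-neuronal, radial glia and intermediate progenitor medians (10133, 4500 and 3152) lie right of the all-gene median of 607.6, and the medians of the 5 non-neural lists lie left of it.

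Genes of the CoREST-LSD1 complex were read at high levels. Rcor2 had 7901 and 7257 normalized counts, rank 692 of 16338, and no peak was named for it. Kdm1a had 12549 and 12528 normalized counts and Hdac2 had 12848 and 13078, whereas Hdac1 had 783.1 and 779.4. The paralogs Rcor1 and Rcor3 had 1317 and 1366, and 677.8 and 642.1. Rest had 1347 and 1406 normalized counts. Of the 20 members and partners, 12 were in the top quintile, and Gfi1 and Gfi1b, partners of the complex in blood cells, were under 10. The chromatin remodelling subunits of SWI/SNF had a median of 5352 over 18 genes, led by Smarca4 with 26609 and 26930. In the NuRD list of 12 genes (median 3988) Chd4 had 30086 and 30896. Ezh2, the catalytic subunit of Polycomb complex 2, had 6219 and 6571 normalized counts in a list of 18 genes with a median of 1085. Dnmt1, the maintenance DNA methyltransferase, had 12419 and 12426, and Dnmt3b 206.7 and 181.6.

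Most lists of basic cell functions had a majority of their members in the top quintile, which holds 3267 genes. Of 19 chaperone genes 17 were in it, led by Hsp90ab1 with 64496 and 65563 normalized counts. Hspa8 had 21660 and 14985, among the wider gaps of the list. Of 19 translation factor genes 18 were in the top quintile, and of 20 cytoskeletal genes 19. The 80 ribosomal protein genes had a median of 3204 normalized counts, with 49 in the top quintile, and the 30 cell cycle genes a median of 4161, with 18 there. Of 35 genes for subunits of respiratory complex I, only 7 were in the top quintile, with a list median of 1414. Ccnd2, a cyclin of cortical progenitors, had 33444 and 33849. Among 20 imprinted genes (median 3812), Nnat had 31749 and 34363 and the growth factor receptor adaptor Grb10 had 20086 and 21112.

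The main question for the peaks was where in this ranking the genes with an Rcor2 peak lay. The authors' deposited table gives 1619 promoter, 2515 gene body, 1219 distal and 1642 intergenic peaks, and intergenic peaks carry no gene name and were left out. No source used here states the rule behind the classes. Measured from a RefSeq start of the named gene, with negative values upstream, 1338 promoter summits had 5th and 95th percentiles of -1493 and 1625 bases. The median was -14142 bases for distal summits and 41188 bases for gene body summits. Of the 16338 measured genes, 3167 (19.4%) were named for at least 1 peak. A promoter peak was named for 1566 (9.59%), a gene body peak for 1323 (8.1%) and a distal peak for 703 (4.3%).

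The share of measured genes with a peak was higher at each higher quintile of control level. Any peak was named for 9.64% of the bottom quintile (95% Clopper-Pearson interval 8.65 to 10.7%) and for 29.9% of the top quintile (28.4 to 31.5%), a difference of 20.3 percentage points. The intermediate quintiles had 15.6, 19.5 and 22.2%. For promoter peaks the share was 3.49% (2.89 to 4.18%) at the bottom and 14.1% (13.0 to 15.4%) at the top, a difference of 10.7 points. The promoter share was 12.4% in the second highest quintile, so most of the difference lay among the bottom 3, and by decile the promoter share was 13.5% in the seventh and 11.2% in the eighth. For gene body peaks the quintile shares were 3.52, 6.58, 6.89, 8.66 and 14.8%, with the largest step at the top. Distal peaks were named for 3.52% of the bottom and 6.52% of the top quintile. These intervals count genes as independent and cover counting error only. Ranking by either control alone moved the 20.3-point difference to 20.4 (control 2) or 20.2 (control 1).

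**Figure D2:**
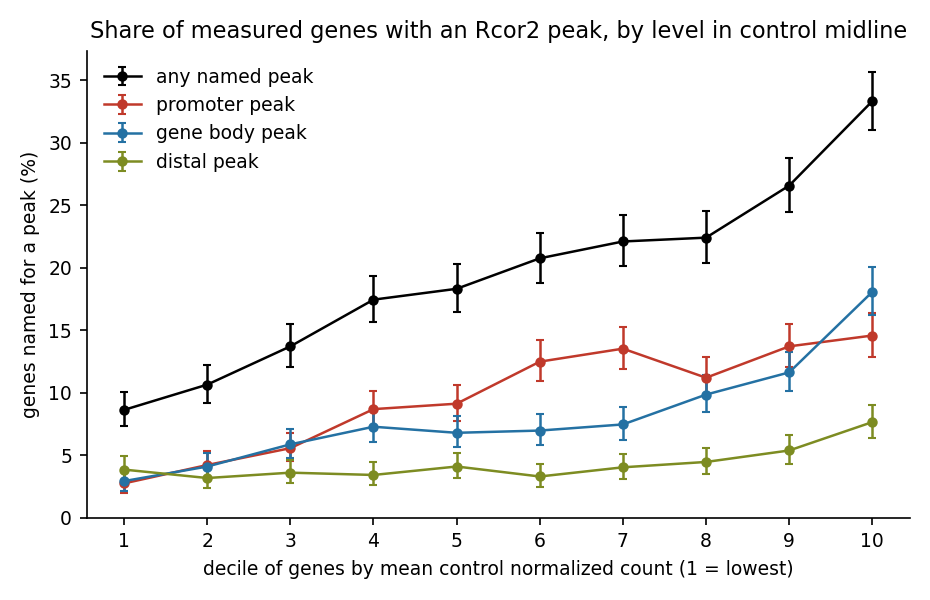
Share of measured genes named for an Rcor2 peak (vertical axis, percent, with 95% Clopper-Pearson intervals) in each decile of mean control normalized count (horizontal axis), for any peak and for each class. The share for any peak goes from 8.63% in the lowest decile to 33.3% in the highest, and the promoter share from 2.75% to 14.6%.

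Seen from the peaks, genes of every class had higher medians than genes without a peak. The 13171 genes without a named peak had a median of 499.4 normalized counts (500.3 in control 1 and 497.3 in control 2). The 1271 genes with a promoter peak only had a median of 1108 (1120 and 1099). The 1008 with a gene body peak only had 1311, and the 487 with a distal peak only 739.7. The 295 genes with a promoter peak and a further peak had a median of 1729, and the 106 with gene body and distal peaks 1984. On the log2(count + 1) scale the median of all genes with a promoter peak was 1.31 above that of genes without a peak, and the median of genes with other peaks only was 1.18 above it. Among genes with a mean of at least 10 the 2 differences were 0.81 and 0.90. Of genes without a peak 14.2% had a mean under 10, against 3.86% of genes with a promoter peak only.

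**Figure D3:**
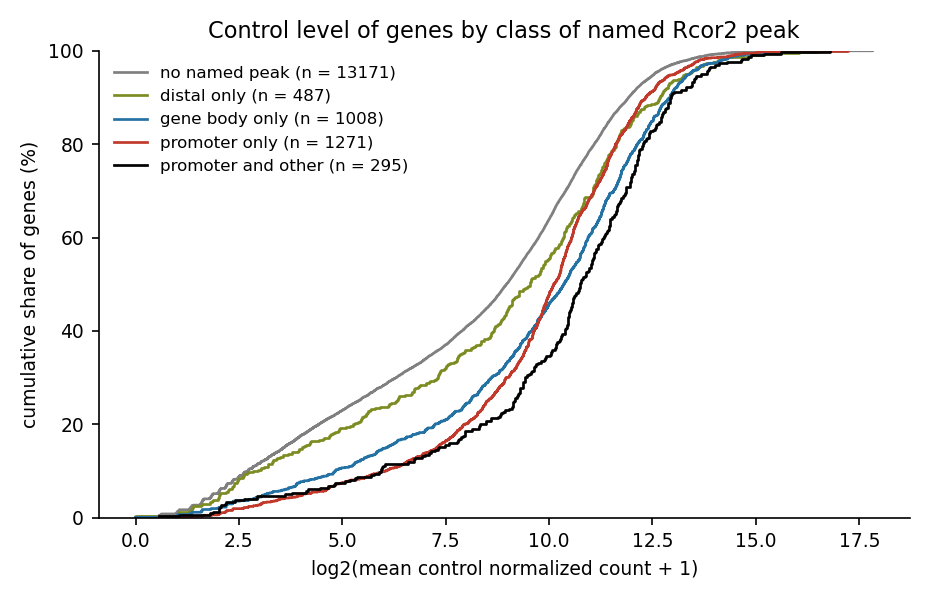
Cumulative share of genes (percent) by log2(mean control normalized count + 1), for genes with no named peak and for 4 classes of genes with peaks. The curve of the 13171 genes with no peak lies left of the others, with a median of 8.97 on this scale, and the distal-only curve (median 9.53) lies nearest to it.

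More peaks per gene went with higher read counts and with longer genes. Genes with 1 peak had a median of 1027 normalized counts (2219 genes), those with 2 peaks 1407 (553 genes), those with 3 peaks 1723 (186 genes) and those with 4 or more 2443 (209 genes). The median genomic spans of these sets were 34409, 69712, 99434 and 194766 bases, against 19716 for genes without a peak. Tenm4, a teneurin of axon targeting, carried 30 peaks and had 25364 and 26527 normalized counts. Auts2, a neurodevelopmental gene, carried 27 peaks with 6805 and 6759 normalized counts, and Nfia, a relative of Nfib, 14 peaks with 22812 and 24443. The receptor phosphatase gene Ptprs carried 11 peaks with 49942 and 49382. The urea transporter gene Slc14a2 also carried 11 peaks, but had only 442.7 and 409.7 normalized counts and was the lowest of the 10 genes with at least 10 peaks.

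Levels were therefore also ranked within quintiles of gene span. In the longest genes (72811 bases and more) any peak was named for 24.0% of the lowest and 49.8% of the highest level quintile. In the shortest genes (up to 6909 bases) the shares were 6.15 and 16.6%. Among these short genes the median span was 2032 bases in the lowest and 4252 in the highest level quintile. Level and span were thus not fully separated there. In the second span quintile the share was 16.6% in the second highest level quintile and 14.7% in the highest, so the order was not kept at the top. With all genes ranked within their span quintile, the difference between top and bottom was 14.5 points for any peak, and 9.60 points for a promoter peak. The level difference behaved differently for the 2 kinds of peak. Genes with a promoter peak had a higher median than genes without a peak in all 5 span quintiles, by 0.78 to 1.70 on the log2 scale. For genes with other peaks only, the log2 differences from the shortest to the longest span quintile were 1.09, -0.14, -0.25, 0.62 and 1.18.

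**Figure D4:**
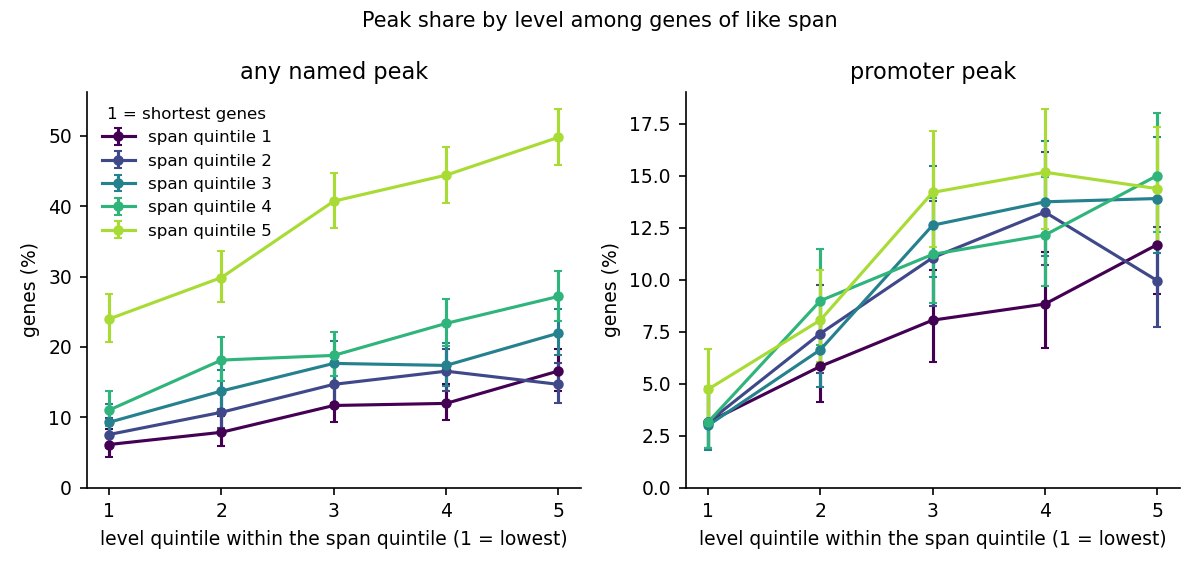
Share of genes with any named peak (left, percent) and with a promoter peak (right, percent) by level quintile, ranked within each quintile of genomic span, with 95% Clopper-Pearson intervals. For any peak the longest genes go from 24.0 to 49.8%, above every other span quintile, while the promoter shares of the 5 span quintiles run from 3.0 to 4.73% in the lowest and from 9.95 to 15.01% in the highest level quintile.

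The strength of a peak showed little difference between levels of its gene. The authors' median fold enrichment over IgG was 4.0 for promoter peaks of genes in each of the 5 level quintiles, from 3.83 to 4.0 for gene body peaks and from 4.0 to 4.14 for distal peaks. The mean Rcor2 height at promoter peaks was 17.4 in the bottom and 17.3 in the top quintile. Input chromatin was also high at these places: its mean height at promoter peaks was 15.4 in the bottom and 15.5 in the top quintile, while IgG stood at 3.97 and 3.89. The 2 Rcor2 libraries differed: at promoter peaks of the top quintile replicate 1 had a mean height of 13.7, under both inputs (16.2 and 14.8), and replicate 2 had 20.9, over both. The same order held in the other 4 quintiles. The mean Rcor2 height exceeded the mean input height at 60.5% of promoter peaks, 77.5% of gene body peaks and 76.3% of distal peaks. Heights are not scaled for depth, so Rcor2 and input heights are set side by side as deposited. Genes with a promoter peak above input had a median of 1237 normalized counts (948 genes), and genes with a promoter peak not above input 1253 (667 genes). With peaks above input alone the top-to-bottom difference was 16.8 points for any peak and 6.18 points for a promoter peak. Whether the accessibility of active chromatin takes part in the relation between level and peaks was not tested.

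**Figure D5:**
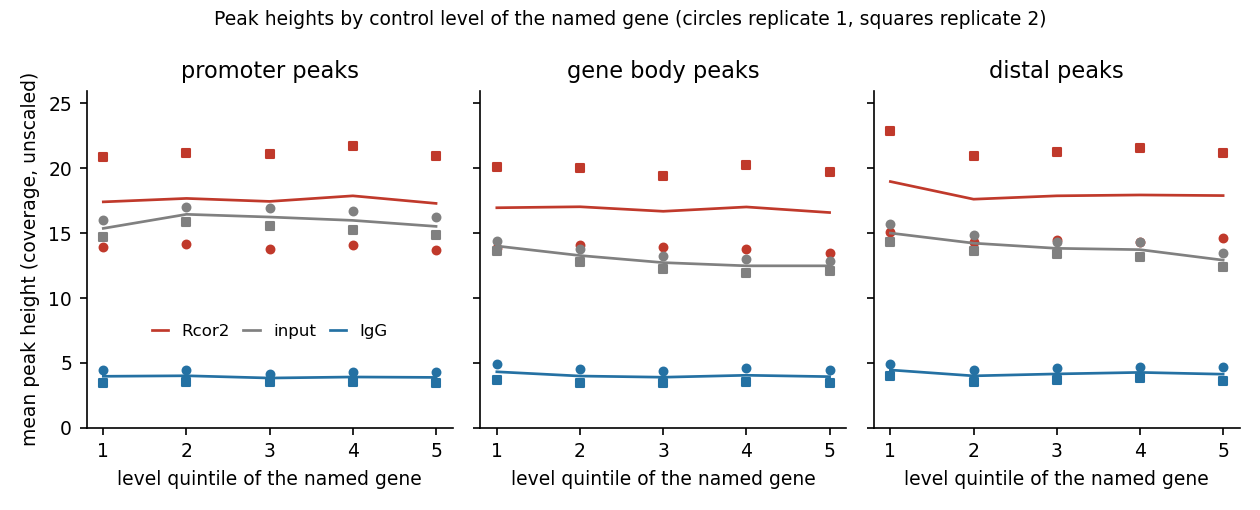
Mean peak height (unscaled coverage) of Rcor2, input and IgG libraries at promoter, gene body and distal peaks by level quintile of the named gene; lines are means of 2 libraries, circles replicate 1 and squares replicate 2. At promoter peaks the Rcor2 line stays between 17.3 and 17.9 and the input line between 15.4 and 16.5, with Rcor2 replicate 1 below both inputs.

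Gene lists differed in how many members had a peak, and these differences were not tested. Of 31 genes in the axon guidance list (median 4680 normalized counts), 24 had a named peak (77.4%, against 19.4% of all genes), 20 of them in the gene body. The list also holds the transcription factor genes Nfia, Nfib and Nfix, which act in callosal development and are no guidance molecules, and all 3 are among the 24, each with gene body peaks. These are long genes, with a median span of 177463 bases, and in the longest span quintile 37.7% of all genes had a peak. They were also highly read, with 20 of the 31 in the top level quintile. In the highest level quintile of the longest genes 49.8% had a peak and 36.7% a gene body peak. The netrin receptor gene Dcc (18464 and 19415 normalized counts) carried 4 peaks, the ephrin receptor gene Ephb2 (9640 and 9736) 9, and Draxin, a guidance protein of the midline (11812 and 11763), 7. At Dcc the mean Rcor2 height was above mean input at all 4 peaks. At most Ephb2 peaks it was at or below input, such as 11.5 against 15, and at the highest it was 25.5 against 15.5. Draxin had peaks on both sides, with 32 against 20 in the gene body and 14 against 18.5 at the promoter. Efnb1, Efnb2, Plxna1, Unc5c, Unc5d, Ryk and Wnt5a had no named peak. In contrast, none of the 19 chaperone genes (median 12498 normalized counts) had a named peak, although 17 were in the top quintile, where 29.9% of genes had a peak. Their median span was 11047 bases, and 12.8% of genes in that span quintile had a peak. Of 19 translation factor genes 3 had a peak, and of 30 cell cycle genes 5 (16.7%).

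The lists of cell types differed in the class of their peaks, a difference that was not tested. Of 24 radial glia genes 15 had a peak (62.5%) and 7 a promoter peak (29.2%), among them Vim, Sox2, Gas1 and Hes1. Over all genes the shares were 19.4% and 9.59%, and in the top quintile, where 18 of the 24 lie, 29.9% and 14.1%. Among the promoter peaks, mean Rcor2 height was above mean input at Sox2 (13.5 against 7.5) and Hes1 (21.5 against 19). It was below input at Gas1 (13.5 against 16.5) and Pdpn (13.5 against 14.5). Hes5, an effector of Notch signalling in radial glia, carried 6 peaks, all distal, and had 1800 and 1890 normalized counts. Its peaks lay on both sides of input, from 46 against 26 to 11 against 19. Of 20 pan-neuronal genes 9 had a peak (45.0%) and 0 a promoter peak; for 7 of them it lay in the gene body. Their median spans were 15293 and 73273 bases. Of 14 deep-layer genes 9 had a peak (64.3%), including promoter peaks at Bcl11b, Fezf2, Tle4, Zfpm2, Foxp2 and Ldb2. Mean Rcor2 height was above mean input at Bcl11b (15.5 against 10) and Ldb2 (15 against 10). It was below input at Fezf2 (16 against 18) and Foxp2 (16 against 19, and 17.5 against 21.5). Of 14 upper-layer genes 9 had a peak as well, 3 of them with a promoter peak. The deep-layer and upper-layer lists hold long genes, with median spans of 84590 and 136967 bases. In the longest span quintile 37.7% of all genes had a peak, and in its highest level quintile 49.8%. Of 16 intermediate progenitor genes 6 had a peak (37.5%), and of 10 Cajal-Retzius genes 4 (40.0%). Neurog2, the proneural factor of cortical progenitors, carried 4 peaks and had 6609 and 6673 normalized counts. Of 18 interneuron genes 2 had a peak, of 11 endothelial genes 1, of 11 microglial genes 1, and of 9 mural and 6 erythroid genes 0.

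In the list of 27 neuronal genes with known repression by Rest in other cells, 6 had a named peak (22.2%, near the share of 19.4% of all genes) and 1, Unc13a, a promoter peak. The list had a median of 2496 normalized counts, and Stmn2, Gria2 and Celsr3, with means of 9676, 7225 and 7838, had no peak. Among the 20 members and partners of the complex 9 had a peak (45.0%, against 19.4% of all genes). In the top quintile, where 12 of the 20 lie, 29.9% of genes had a peak. Hdac1, Hdac2 and Rest had promoter peaks, and Kdm1a a gene body peak. Mean Rcor2 height was above mean input at Hdac1 (21.5 against 14.5) and Kdm1a (13 against 10), and below it at Rest (16 against 21). The 2 Rcor2 libraries had 17 and 26 against inputs of 20 and 9 at Hdac1, and 8 and 18 against 9 and 11 at Kdm1a. The Hdac2 peaks differed, with 12.5 against 16.5 and 16.5 against 8.5. Ribosomal protein genes had promoter peaks in 17 of 80 cases (21.3%, against 9.59% of all genes). In the top quintile, where 49 of the 80 lie, the promoter share was 14.1%. Mean Rcor2 height was below mean input at Rpl18 (14.5 against 29.5) and Rps12 (15.5 against 19.5), and above it at the promoter peaks of the others. Replication-dependent histone genes had promoter peaks in 14 of 60 (23.3%), with some peaks named for several neighbouring histone genes at once. At most of these histone genes the mean input height was above the mean Rcor2 height, such as 31.5 against 16.5 at Hist1h4n. Only Hist1h1b (Rcor2 15, input 14) and the peak shared by Hist1h2bh and Hist1h3f (17 and 8) had Rcor2 above input. Of 371 zinc finger genes named Zfp, 74 had a peak (19.9%), and of 54 clustered protocadherins 1. Among the Notch genes 8 of 20 had a peak, and among the hedgehog genes 7 of 14, against 19.4% of all genes. Their median spans were 22861.5 and 69479.5 bases, in span quintiles where 16.0 and 19.7% of all genes had a peak. The hedgehog genes Ptch1 and Gas1 had promoter peaks. Mean Rcor2 height was above mean input at Ptch1 (16.5 against 11) and below it at Gas1 (13.5 against 16.5). At Ptch1 the 2 Rcor2 libraries had 11 and 22 against inputs of 11 and 11.

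The genes with the most reads and a promoter peak were Rmrp, Actb, Malat1, Ctnnb1, Ptprs, Vim, Hnrnpu and Zbtb18. Ctnnb1, which encodes beta-catenin, had 59633 and 61287 normalized counts. Its promoter peak on mm10 (chr9:120933036-120933194) had Rcor2 heights of 11 and 21, input heights of 22 and 20 and IgG heights of 4 and 5. At the promoter peak of Actb (chr5:142907188-142907438) the Rcor2 heights were 11 and 25 and the inputs 15 and 11. Among the promoter peaks of these 8 genes, only that of Zbtb18 had both Rcor2 libraries above both inputs, at heights of 14 and 18 against 7 and 13. Among the genes with the most reads and no named peak were Rn45s, Tubb5, Rpph1, Sox11, Eef2, Hsp90ab1, Dync1h1 and Eif4g2, with means from 61070 to 232834 normalized counts.

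The strongest promoter peaks belonged to genes across the middle and upper part of the ranking. H2afy2, a macroH2A histone gene with 4654 and 4518 normalized counts, had the highest fold enrichment of a promoter peak, 13.7 in the authors' deposited table (chr10:61782614-61783187), with Rcor2 heights of 46 and 69 against inputs of 16 and 19. Zbtb34 had 915.7 and 1019 normalized counts and a fold enrichment of 12.2, with Rcor2 heights of 31 and 57 against inputs of 23 and 14. The metalloproteinase gene Adam19 (1152 and 1066 normalized counts) and the ribosomal protein gene Rps29 (3195 and 1841) both stood at 11.3. The chromatin remodeller gene Chd2 (6100 and 6286) stood at 10.8. All 5 peaks had both Rcor2 libraries above both inputs.

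At the other end, 63 genes with a promoter peak had a mean under 10 normalized counts, out of 2058 such genes. Among the lowest of them with an established name were Ang, Meox2, Cda, Ghrh, Tex40, Foxc2 and Mir6546, each with a mean under 3. Meox2, a mesodermal homeobox gene, had 0.98 and 3.24 normalized counts, which are 1 and 3 reads. Foxc2, a factor of mesenchyme and vessels, had 1 read in control 1 and 0 in control 2 and carried 2 promoter peaks. The first of these peaks (chr8:121115751-121115935) had Rcor2 heights of 10 and 20 against inputs of 3 and 3. The other (chr8:121116078-121116291) had Rcor2 heights of 8 and 17 against inputs of 11 and 14. Ghrh, the releasing hormone of growth hormone, had 1.95 and 2.16 normalized counts, with Rcor2 heights of 18 and 32 and inputs of 23 and 19. Others under 10, chosen here after their values were seen because they are regulators of other lineages, were the neural crest factor Snai2 (11.7 and 7.57), the motor neuron factor Isl2 (4.88 and 6.49), the ovarian factor Foxl2 (2.93 and 4.32) and the somite clock gene Hes7 (0.98 and 4.32). A gene with so few reads cannot be placed within the lowest quintile at this depth.

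Promoter sequence was compared over the RefSeq window from 250 bases before to 50 bases after the most upstream start (GRCm38.p6, the assembly of mm10), which was found for 12199 measured genes. Of 1338 promoter summits, 204 (15.2%) lay within such a window of the nearest RefSeq start of the named gene. The shares below therefore describe sequence near gene starts, and not the sequence under most promoter summits. GC content was higher at higher levels: the median was 55.3% in the bottom and 63.7% in the top quintile, and the median number of CpG dinucleotides was 8 and 25. Genes with a promoter peak had a median of 61.3% GC and 22 CpG, against 60.0% and 19 for genes without a peak. In the bottom quintile the 2 sets were further apart, at 15 CpG for 79 genes with a promoter peak and 7 for 1913 without. In the top quintile both had 25. The GC box GGGCGG, counted on both strands here and below, was in 62.0% of all windows, in 66.4% of those with a promoter peak and in 61.3% of those without a peak. The CCAAT box was in 38.4, 41.1 and 38.5%, and the ETS core CCGGAA in 25.2, 26.1 and 26.1%. In the top quintile the ETS core was in 21.95% of windows with a promoter peak and 32.1% of those without. The bottom quintile had the opposite order, 27.8% and 10.6%. The quintiles between them, from low to high, had 17.0 and 18.2%, 30.4 and 33.4%, and 31.9 and 36.1%. The left part of the Rest motif, TTCAGCACC, was in 0.434% of all windows and in 0.165% of those with a promoter peak (2 of 1209). The CCAAT box can lie in the same window as the other motifs, and matches are descriptions of letters only.

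Among promoters whose window holds the summit of a peak, those of the 2 genes with the most reads, of the 2 with the fewest and of the gene with the highest fold enrichment are shown, since they span the range of levels at which peaks were found. Each holds the 250 bases upstream of a RefSeq start, 5′ to 3′ on the strand of the gene, with capitals marking the GC box, the CCAAT box and the ETS core spelled out above, on either strand. Zbtb18, a zinc finger repressor of cortical development (34405 and 34290 normalized counts), has the window chr1:177444403-177444652 on the plus strand, with the summit 93 bases upstream. This window lies inside the span of Zbtb18, so it belongs to an internal start and not to the most upstream start of the gene. Cbx5, a heterochromatin protein gene (28169 and 28856), has chr15:103215353-103215602 on the minus strand. Vgll3, a transcription cofactor gene (10.7 and 8.65), has chr16:65814939-65815188 on the plus strand. Edn1, the endothelin gene (3.90 and 4.32), has chr13:42301226-42301475 on the plus strand. Zbtb34 has chr2:33431325-33431574 on the minus strand.
Zbtb18: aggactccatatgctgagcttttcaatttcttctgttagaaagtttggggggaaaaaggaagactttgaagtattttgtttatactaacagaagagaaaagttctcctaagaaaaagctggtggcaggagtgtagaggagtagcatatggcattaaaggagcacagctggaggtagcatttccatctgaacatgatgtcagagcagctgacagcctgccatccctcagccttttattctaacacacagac
Cbx5: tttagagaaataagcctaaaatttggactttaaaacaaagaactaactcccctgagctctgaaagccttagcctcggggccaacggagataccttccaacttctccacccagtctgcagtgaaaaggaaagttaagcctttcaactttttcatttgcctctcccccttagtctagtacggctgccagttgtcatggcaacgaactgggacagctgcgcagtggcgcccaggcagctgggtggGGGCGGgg
Vgll3: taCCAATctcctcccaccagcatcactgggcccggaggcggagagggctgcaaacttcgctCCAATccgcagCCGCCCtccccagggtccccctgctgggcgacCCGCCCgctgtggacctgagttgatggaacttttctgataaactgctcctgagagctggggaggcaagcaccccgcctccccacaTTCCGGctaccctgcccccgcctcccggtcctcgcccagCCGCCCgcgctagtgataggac
Edn1: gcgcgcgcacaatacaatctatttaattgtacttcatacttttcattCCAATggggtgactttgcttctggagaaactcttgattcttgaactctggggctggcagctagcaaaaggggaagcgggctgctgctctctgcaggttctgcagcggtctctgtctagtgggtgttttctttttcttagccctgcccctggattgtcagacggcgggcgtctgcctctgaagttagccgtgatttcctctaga
Zbtb34: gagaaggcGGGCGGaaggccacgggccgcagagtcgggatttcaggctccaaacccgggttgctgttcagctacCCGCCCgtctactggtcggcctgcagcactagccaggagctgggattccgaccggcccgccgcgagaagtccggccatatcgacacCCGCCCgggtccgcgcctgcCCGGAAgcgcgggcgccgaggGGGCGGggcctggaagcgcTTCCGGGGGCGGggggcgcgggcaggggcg
The 250 bases before this internal start of Zbtb18 hold 0 CpG at 42.4% GC and none of the 3 motifs. Those of Zbtb34 hold 32 CpG at 74.4% GC, with 5 GC boxes and 2 ETS cores. Cbx5 has 7 CpG and 1 GC box, Vgll3 16 CpG, 3 GC boxes, 2 CCAAT boxes and 1 ETS core, and Edn1 9 CpG and 1 CCAAT box. The Rcor2 heights were 17 and 21 at the Cbx5 peak against inputs of 16 and 12, and 12 and 13 at Edn1 against 9 and 11. At Vgll3 both inputs, 23 and 27, were above both Rcor2 heights, 10 and 18. Among these 5 windows neither CpG number nor motif content was ordered by the reads of the gene.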

How the data were processed

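RNA-seq of 2 control midline libraries and a table of Rcor2 peaks were analysed. Tools listed in the submitters' processing notes are Trim Galore and HISAT2 2.1.0, with the build mm10; no source used here states the counter, annotation, strand use or peak settings, so antisense and overlapping genes cannot be told apart. Per the file headers, the deposited RNA signal is a normalized count for each gene; 100% were whole multiples of 1 step per library (relative tolerance 1e-04), which gave the reads. Per the file headers, the authors' peak table holds heights (coverage signal), a fold enrichment ratio over IgG and, in a column with a spoiled header, −log10 of q by place and range. Peaks were called by the authors on Rcor2 against IgG, per the peak names, as 1 list for the replicates.

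A gene had a peak where the authors named it; 147 peaks naming several genes counted for each, and 23 date-like gene names were not matched. Of 3491 peak gene names, 324 had no row among the RNA genes used here. Levels were means of the 2 controls; log2 values used a pseudocount of 1. Spans, starts and promoter windows came from RefSeq (GRCm38.p6), with spans for 96.9% of genes. That table holds spans but no transcript lengths, so the planned levels per length, and the genes to be named by them, were not made. No test between groups applied. Scripts (Python 3.11.15, pandas 2.3.3, SciPy 1.17.1, matplotlib 3.10.9) were tested on simulated data. Members and gene lists were chosen with earlier results of these data known. Genes were named by rule: Rcor2, the 10 with the most reads, the 3 highest members of each list (not all are printed), the 8 highest and 8 lowest with a promoter peak, the 8 with most peaks, the 5 strongest promoter peaks, the 8 highest without a peak and the 6 largest differences between controls with a mean of at least 100; further list members were named for their known roles, after their values were seen. Some genes that the rule or the lists hold are not reported here.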

Additional observations from a re-analysis of the deposited data

How the results depend on the processing

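None of the 4 relations between level and peaks changed direction under any alternative run. Each below is given as the 4 values in order: the top-minus-bottom share of any peak and of promoter peaks, in points (20.3 and 10.7 as reported), and the log2 median difference of promoter peak genes and of genes with other peaks from genes without a peak (1.31 and 1.18). With peaks of −log10 q of at least 5 they were 13.5, 6.40, 1.2 and 1.05; with peaks higher in Rcor2 than in input 16.8, 6.18, 1.24 and 1.37; and among genes with a mean of at least 10 they were 17.997, 9.14, 0.81 and 0.90. Leaving out either control gave 20.2 to 20.4, 10.7 to 10.8, 1.3 and 1.16 to 1.21. A pseudocount of 10 gave log2 differences of 1.3 and 1.16. Chosen after seeing the data, ranking within span quintiles gave 14.5 and 9.60 points, and the mean over span quintiles gave log2 differences of 1.15 and 0.50, the latter with 2 of 5 span quintiles below 0. Protein-coding genes alone, also chosen after seeing the data, gave 20.3, 11.2, 1.08 and 1.06. The median absolute log2 difference between the controls was 0.075, 0.089 over all genes and 0.074 on recovered reads scaled to library totals. The causes of the other shifts were not tested. The planned ranking per length was not run. No paired analysis was possible because only 1 group of RNA libraries was used. Precision is limited by 2 libraries of opposite sex pattern, by low counts in the bottom quintile, and by unscaled peak heights without library totals.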
